A study of Mus musculus with 15 samples.

Results

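Mitochondrial ribosomal proteins are the protein subunits of the ribosome that works inside mitochondria. They were described here in microdissected mouse lung, where dysplastic tissue was set against unaltered tissue. Members were all genes whose symbol starts with Mrpl or Mrps followed by a digit and that had a probe set annotated to 1 gene. This gave 76 members, 47 Mrpl and 29 Mrps genes, of 18193 genes with such a probe set. By symbol alone, Mrpl genes are called large subunit and Mrps genes small subunit below. Their place in the ribosome was not checked and can differ from the symbol. All 76 were tested, among 11603 tested genes. Of 156 member probe sets 121 passed the signal limit, and the probe set with the highest mean signal over the 15 arrays stood for its gene. Mrpl30 and Mrpl53 share their probe sets with other genes and were not analysed.

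The study used mice in which the surfactant protein C promoter drives c-raf, a kinase of the growth factor pathway, in respiratory epithelium. The line came from a C57BL/6/DBA/2 hybrid background and was then kept on C57BL/6 for at least 5 generations. The 3 groups were dysplasia (5 arrays), laser-microdissected dysplastic lung of transgenic mice aged 5 to 7 months, transgenic (5 arrays), unaltered lung that the study took from the same dysplasia-bearing animals, and non-transgenic (5 arrays), lung of littermates aged 7 to 10 months without the transgene. Dysplastic and unaltered tissue was picked by histology, and age differed between the non-transgenic mice and the others, so that age and transgene cannot be told apart there. One array, transgenic 2, is labelled unaltered in its title and tumor in a second label, and was used by its title. Each value is an Affymetrix signal scaled by the authors to a target of 500. Changes are differences of log2(signal + 50), which understate the change of dim probe sets.

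Mitochondrial ribosomes translate the few proteins that mitochondrial DNA encodes, all of them subunits of the respiratory chain and ATP synthase. Their RNA comes from mitochondrial DNA, but every protein subunit is encoded in the nucleus, made in the cytosol and imported. Subunits with low numbers are named after their bacterial relatives, whereas most with higher numbers are particular to mitochondria.

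Marker genes differed between the tissues and are given first. All 10 endothelial markers were lower in dysplasia than in transgenic tissue, with a median log2 change of -1.76, and their summed signal was 14242 to 22541 in dysplasia and 48267 to 69553 in transgenic tissue. Of 5 general epithelial markers 4 were higher in dysplasia (median log2 change 1.41), with summed signals of 45674 to 56750 in dysplasia and 18965 to 21118 in transgenic tissue. Of 7 tested cell cycle genes 6 were higher (median 0.83), as were both of 2 tested ciliated cell markers (0.60 and 2.70, median 1.65) and 2 of 4 club cell markers (median 0.66). Of 5 listed ciliated cell markers Foxj1, Ccdc39 and Dnah5 had no tested probe set. Lower in dysplasia were 5 of 6 macrophage markers (median -0.61), 4 of 8 fibroblast markers (-0.85) and 3 of 6 lymphocyte markers (-0.30), and of 6 alveolar type 1 markers 3 were lower and 1 higher (-0.49). None of 5 tested alveolar type 2 and 5 tested heart muscle markers was called by limma in this comparison, with 1 alveolar type 2 marker higher and 1 heart muscle marker lower at an unadjusted p under 0.05. Against non-transgenic tissue all 10 endothelial and all 5 heart muscle markers were lower in dysplasia (medians -1.94 and -1.25), and 4 of 5 epithelial markers were higher (1.92). Between transgenic and non-transgenic tissue 3 of 5 epithelial (median 0.51) and 2 of 6 macrophage markers (0.49) were higher. Xist, which marks female mice, had signals of 9674 to 15052 on 2 of 5 dysplasia, 1 of 5 transgenic and 4 of 5 non-transgenic arrays, and at most 166.4 on the others. The ratio of 5' to 3' actin signal, a measure of RNA integrity, was between 12.5% and 75.2% over the 15 arrays. The part of tissue makeup, sex and RNA integrity in the results below was not tested beyond the fits named in the closing section. In bulk tissue fewer cells of a type and less RNA per cell cannot be told apart.

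Most members had higher signals in dysplasia than in transgenic tissue, by modest amounts. With limma and a Benjamini-Hochberg adjusted p under 0.05 over all tested probe sets, 27 of 76 members were higher (35.5%) and 1 was lower, where 18.6% of all tested genes were higher and 21% lower. The median log2 change of the members was 0.23, against -0.01 over all tested genes, and 65 members had a change above 0 (85.5%, against 49.3% of all tested genes). This was not particular to the members. The share above 0 was 84.6% in the list of respiratory chain and ATP synthase subunits and 90.9% in the list of cytosolic ribosomal proteins. The study took both tissues from the same mice, so a further fit used the array number as a block. That the number marks the mouse was not shown, and Xist differed between the arrays of number 4. In that fit 40 members were higher (52.6%) and 2 lower (2.63%), where 25.9% of all tested genes were higher and 28% lower. All 27 members called higher without the block were among the 40. The others were Mrpl14, Mrpl18, Mrpl20, Mrpl39, Mrpl44, Mrpl45, Mrpl47, Mrps7, Mrps10, Mrps14, Mrps16, Mrps25 and Mrps35, and the second member called lower was Mrps9. Values per gene below are from the unpaired fit, the mode of the study's methods. In 17 members every dysplasia array lay above every transgenic array (22.4%, against 14.7% of all tested genes), and in 0 members every dysplasia array lay below (16.6% of all tested genes). Of the large subunit 21 of 47 members were higher and 0 lower (median log2 change 0.29), and of the small subunit 6 of 29 were higher and 1 lower (median 0.21). The difference between the subunits was not tested.

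**Figure D1:**
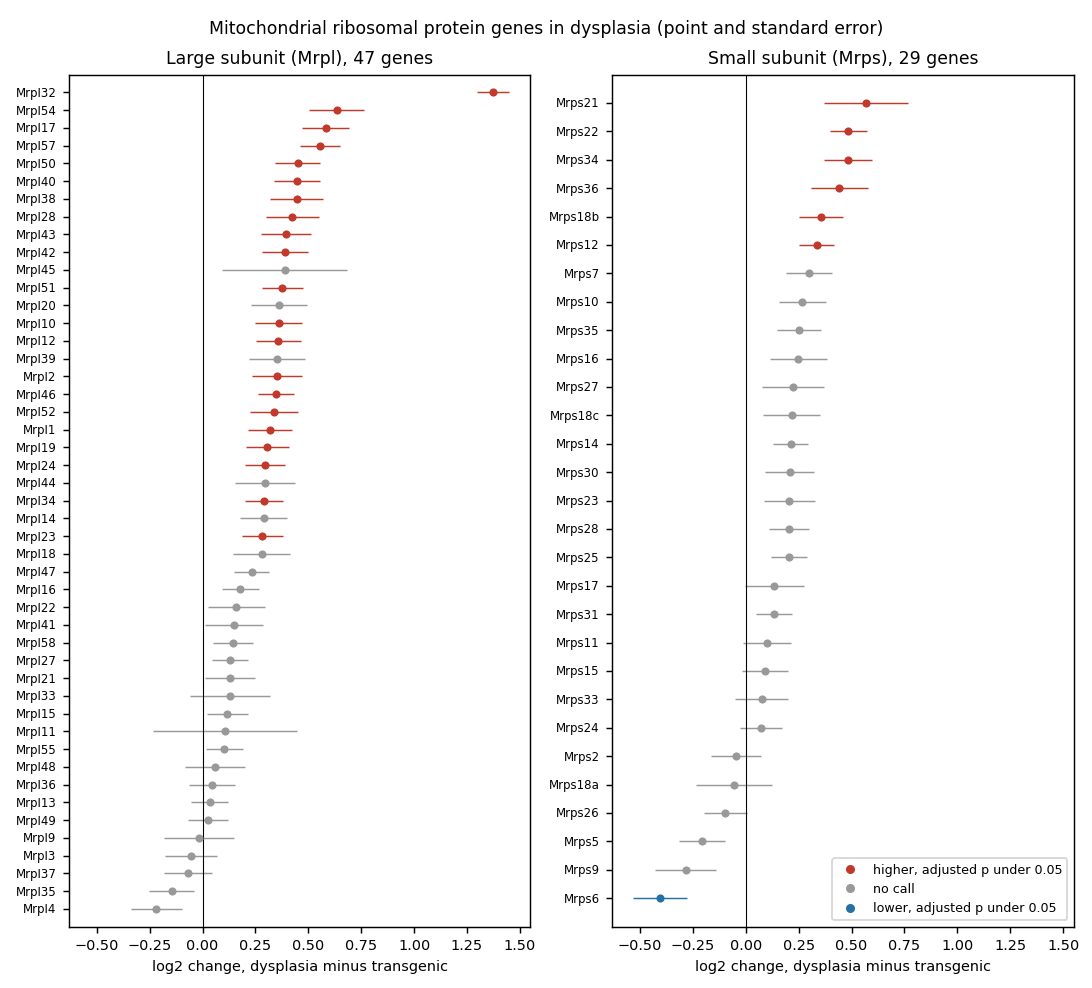
Log2 change between dysplasia and transgenic tissue (x axis, 5 arrays each) of the 47 large and 29 small subunit genes (by symbol), with standard errors. Red points are the 27 genes called higher, the blue point is Mrps6, called lower, and Mrpl32 stands apart at 1.37.

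Against non-transgenic tissue, 41 of 76 members were higher in dysplasia (53.9%) and 1 was lower, where 24.7% of all tested genes were higher and 26% lower. The median log2 change was 0.31, against -0.01 over all tested genes, and 64 members were above 0 (84.2%, against 49.4%). In 29 members the groups did not overlap, with dysplasia above (38.2%, against 19.4% of all tested genes). The large subunit had 26 of 47 members higher, and the small subunit 15 of 29 higher and 1 lower. This comparison shares its 5 dysplasia arrays with the one above.

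Between transgenic and non-transgenic tissue no member was called by limma, where 1.59% of all tested genes were higher and 0.121% lower. SAM, the test of the study's methods, was run here on the same log2 values at a false discovery rate under 0.05. It called no member either. The study's own cut-offs for SAM were a false discovery rate of 0.001 and a fold change of 2. At an unadjusted p under 0.05, 9 members were higher and 0 lower (11.8% higher, against 9.55% higher and 5.16% lower of all tested genes). The median log2 change was 0.08, and 61 of 76 members were above 0 (80.3%, against 48.8% of all tested genes). Mrpl32, Mrpl46 and Mrps6 were the 3 members whose transgenic arrays all lay above the non-transgenic ones (3.95%, against 4.42% of all tested genes).

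The median over all 76 members was higher on every dysplasia array than on any array of the other groups. Relative to the non-transgenic mean, the median log2 difference over the 76 members was 0.36, 0.16, 0.37, 0.32 and 0.32 on dysplasia arrays 1 to 5. It was 0.07, 0.01, 0.13, 0.11 and 0.06 on the transgenic arrays, and 0.01, -0.11, 0.03, 0.04 and 0.04 on the non-transgenic arrays. Dysplasia 2 was the lowest of its group, just above transgenic 3. For the small subunit alone the groups overlapped, with 0.12 on dysplasia 2 and 0.16 on transgenic 3. Over the members without a call, dysplasia 2 had 0.05, below 0.10, 0.08 and 0.06 on transgenic 3, 4 and 5.

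**Figure D2:**
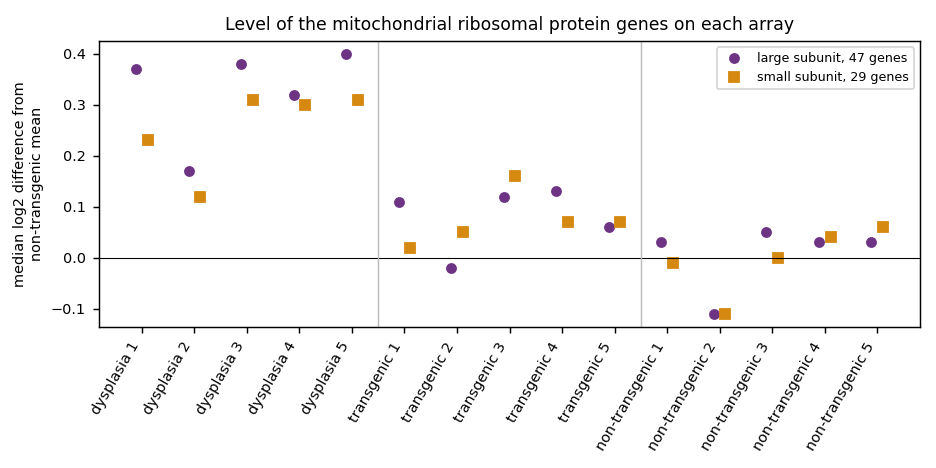
Median log2 difference from the non-transgenic mean (y axis) on each of the 15 arrays, for the 47 large subunit genes (circles) and the 29 small subunit genes (squares), split by symbol. Dysplasia 2 lies lowest of the dysplasia arrays for both subunits, at 0.17 and 0.12, and its small subunit median is below that of transgenic 3, at 0.16.

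Mrpl32, a large subunit protein related to bacterial L32 whose precursor is cut to its mature form by the m-AAA protease of the inner membrane, had the largest change of all members. Its probe set, 1424372_at, gave 4699, 5058, 5015, 4436 and 4648 in dysplasia, 1783, 1906, 1742, 1796 and 1825 in transgenic tissue, and 1620, 1503, 1473, 1487 and 1544 in non-transgenic tissue. The 3 groups did not overlap, and the lowest dysplasia array was above all others. The log2 change was 1.37 ± 0.08 (SE) against transgenic tissue (2.64-fold, limma adjusted p = 1.03e-06) and 1.61 ± 0.08 against non-transgenic tissue (3.13-fold, adjusted p = 8.71e-08). Between transgenic and non-transgenic tissue it was 0.24 ± 0.07 (adjusted p = 0.153). No second tested probe set of Mrpl32 was on hand. Without Mrpl32 the median log2 change of the other 75 members was 0.22 against transgenic tissue.

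Mrpl32 starts back to back with Psma2, which encodes a proteasome subunit, with 205 bases between the 2 starts on chromosome 13. Psma2 had signals of 7760, 6251, 6831, 6228 and 7163 in dysplasia, 5151, 4913, 4488, 4655 and 4488 in transgenic tissue, and 4037, 4219, 4074, 4336 and 4363 in non-transgenic tissue. Its dysplasia arrays all lay above the others. Its log2 change against transgenic tissue was 0.52 ± 0.09 (adjusted p = 0.00109), below that of Mrpl32 (the difference between the genes was not tested). Sequence before the starts is shown for Mrpl32, for Mrpl17 and Mrps22 as further members called higher in both dysplasia comparisons, and for Mrps6 as the member called lower. The 200 bases before each start are from RefSeq (GRCm38.p6), 5' to 3' on the gene's strand. Capitals mark matches on either strand to GCGCATGC (a form of the site of NRF1, an activator of nuclear genes for mitochondria), CCGGAAG (Ets family), AAGATGGC (YY1) or CACGTG (E box).
Mrpl32 (chr13:14613038-14613237, minus strand): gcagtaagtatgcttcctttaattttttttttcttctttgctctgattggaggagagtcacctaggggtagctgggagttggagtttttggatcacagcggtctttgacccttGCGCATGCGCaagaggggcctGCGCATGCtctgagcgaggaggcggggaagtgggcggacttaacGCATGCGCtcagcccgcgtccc
Mrpl17 (chr7:105811088-105811287, minus strand): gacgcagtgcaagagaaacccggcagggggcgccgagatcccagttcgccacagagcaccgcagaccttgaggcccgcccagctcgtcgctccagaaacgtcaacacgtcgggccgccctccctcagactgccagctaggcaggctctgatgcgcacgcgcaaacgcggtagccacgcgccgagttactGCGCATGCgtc
Mrps22 (chr9:98601680-98601879, minus strand): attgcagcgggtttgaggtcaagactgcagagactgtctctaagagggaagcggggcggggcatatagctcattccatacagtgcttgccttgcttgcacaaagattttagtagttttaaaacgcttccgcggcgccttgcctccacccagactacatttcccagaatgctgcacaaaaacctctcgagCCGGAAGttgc
Mrps6 (chr16:92058136-92058335, plus strand): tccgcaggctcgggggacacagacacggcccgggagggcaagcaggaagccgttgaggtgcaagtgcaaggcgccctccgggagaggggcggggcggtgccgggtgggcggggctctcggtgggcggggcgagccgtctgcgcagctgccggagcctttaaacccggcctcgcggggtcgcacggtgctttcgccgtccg

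The Mrpl32 sequence held 4 matches to GCGCATGC, 2 of them overlapping in 1 palindrome, and Mrpl17 held 1. Mrps22 held 1 Ets match, and Mrps6 held 0 matches to the motifs marked in capitals. TGCGCA and GGGCGG, searched below, were not marked, and both occur in the Mrps6 and Mrpl32 sequences. Over 300-base windows (250 before to 50 after the start), available for 67 members, 9 motifs were searched on both strands, and the form GCGCATGC was added after the shares of the other 8 had been seen. CCGGAAG was in 37.3% of member windows, against 19.7% of windows of tested genes and 9.93% of all 27025 genes. AAGATGGC was in 17.9% of members, 5.23% of tested genes and 3.19% of all genes, and its longer form, AAGATGGC followed by GGC, in 7.46%, 1.8% and 0.755%. For NRF1, the full palindrome, GCGCATGC followed by GC, was in 4.48% of members, 2.33% of tested genes and 1.07% of all genes, TGCGCA in 31.3%, 16% and 8.79%, and GCGCATGC in 11.9%, 5.89% and 3.05%. The other motifs were not more frequent in members than in tested genes, with CACGTG in 7.46% of members and 11.6% of tested genes (8.09% of all genes), GGGCGG (GC box) in 50.7% and 68.9% (38.2%), and TATAAA in 7.46% and 9% (15.7%). AAGATGGC lies within its longer form, and GCGCATGC and TGCGCA overlap the palindrome. Between the 23 members called higher in dysplasia than in transgenic tissue and the 43 without a call, the shares lay in both directions and were not tested. CCGGAAG was in 43.5% of those called and 34.9% of those without a call, GCGCATGC in 17.4% and 9.3%, and GGGCGG in 65.2% and 41.9%. TGCGCA was in 26.1% and 32.6%, AAGATGGC in 13% and 20.9%, its longer form in 0% and 11.6%, CACGTG and TATAAA each in 4.35% and 9.3%, and the NRF1 palindrome in 4.35% and 4.65%. A match is a description of these letters, and binding was not measured.

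Head-to-head starts within 1000 bases were found for 26 members in 25 pairs, 1 of them between 2 members, Mrpl46 and Mrps11. Of 17 tested partners that are not members, 4 were higher in dysplasia than in transgenic tissue (Psma2, Tcp1, Klc4 and Ncapd2) and 2 were lower (Pnpla7 and 2610507I01Rik). Of all tested genes 18.6% were higher and 21% lower, and whether partners change together was not tested. Mrpl2 and its partner Klc4, a kinesin light chain, had log2 changes of 0.35 and 0.59. For Mrpl40 and Hira, a histone chaperone, the log2 changes were 0.45 and -0.003, and Hira was not called.

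**Figure D3:**
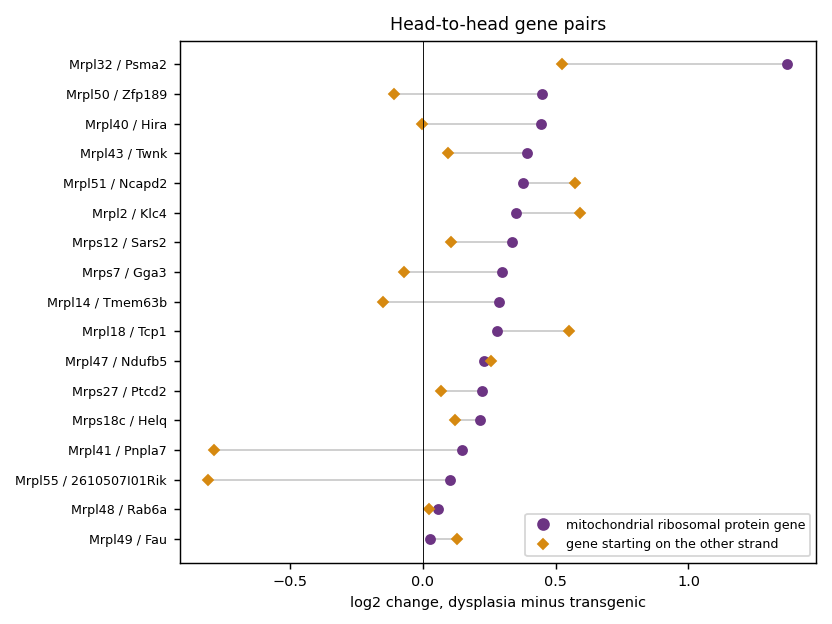
Log2 change between dysplasia and transgenic tissue (x axis) of members (circles) and of the tested gene that starts on the other strand (diamonds), for 17 pairs. Mrpl32 lies at 1.37 and Psma2 at 0.52.

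Other large subunit members changed less. Mrpl57, a mitochondria-specific subunit, had signals of 2826, 2385, 2947, 2351 and 2946 in dysplasia, 1889, 1715, 1883, 1712 and 1844 in transgenic tissue, and 1642, 1320, 1509, 1745 and 1644 in non-transgenic tissue. All dysplasia arrays lay above all others. Its log2 change was 0.55 ± 0.10 against transgenic tissue (adjusted p = 0.000979) and 0.76 ± 0.11 against non-transgenic tissue (adjusted p = 0.000165). Mrpl17, a relative of bacterial L17, had signals of 3163, 2476, 2703, 2491 and 2682 in dysplasia, 1986, 1757, 1890, 1892 and 1437 in transgenic tissue, and 1747, 1671, 1726, 1596 and 1483 in non-transgenic tissue. Dysplasia did not overlap with either group, and the log2 changes were 0.58 ± 0.11 (adjusted p = 0.00182) and 0.70 ± 0.09 (adjusted p = 9.9e-05). Mrpl54 averaged 1146 ± 151 in dysplasia, against 722.6 ± 116 in transgenic and 703.8 ± 82.2 in non-transgenic tissue (SD, n = 5 each), again without overlap. Mrpl28, a relative of bacterial L28, had log2 changes of 0.42 against transgenic and 0.71 against non-transgenic tissue, both called, and Mrpl50 of 0.45 and 0.54, both called.

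**Figure D4:**
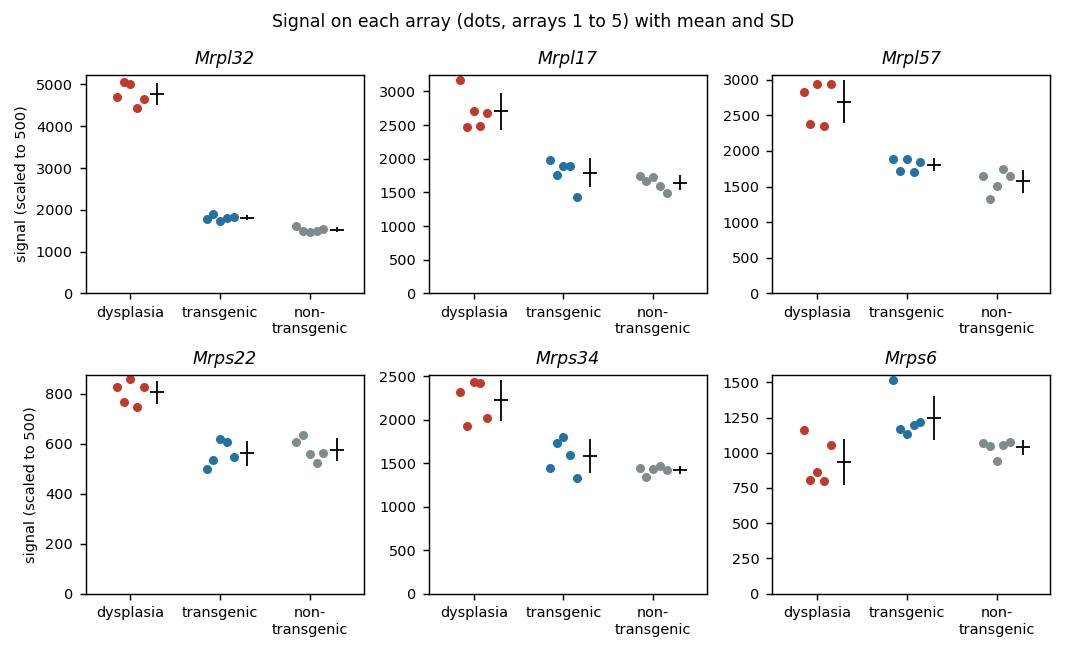
Signal (y axis, scaled to a target of 500) of 6 members on the 5 arrays of dysplasia, transgenic and non-transgenic tissue (dots), with mean and SD. The dysplasia arrays of Mrpl32, Mrpl17, Mrpl57, Mrps22 and Mrps34 lie above all others, and those of Mrps6 overlap with both groups.

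The stalk of the large subunit, which recruits translation factors, had calls in some of its genes. Mrpl12, the stalk protein that also binds mitochondrial RNA polymerase, was higher in dysplasia than in transgenic tissue (0.36 ± 0.10, adjusted p = 0.0205) and than in non-transgenic tissue (0.53 ± 0.12, adjusted p = 0.00456). Mrpl10, the base of the stalk, was higher against transgenic tissue (0.36 ± 0.11, adjusted p = 0.028) and had 0.32 ± 0.12 against non-transgenic tissue (adjusted p = 0.0551). Mrpl11, which lies at the stalk's foot, had 0.11 ± 0.34 and 0.16 ± 0.28 with no call, and its signals were 734.6, 1507, 2016, 1773 and 1972 in dysplasia, 590.1, 1748, 1659, 1684 and 1829 in transgenic tissue, and 1402, 828.7, 1380, 1517 and 1817 in non-transgenic tissue. Arrays 1 of dysplasia and of transgenic tissue and array 2 of non-transgenic tissue were the low ones. These signals are of 1437131_x_at, and the same arrays were lowest on the dim 1437839_x_at. On 1417918_at the lowest dysplasia array was number 2 (964, against 1159 on dysplasia 1). There transgenic 1 had 819.4, close to 856.9 on transgenic 3.

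Among the Mrps genes, Mrps22, a mitochondria-specific protein, and Mrps34, which is needed for a stable small subunit, were called in both comparisons. Mrps22 had signals of 825.5, 768.3, 857.5, 747.8 and 825.9 in dysplasia, 498.4, 534.5, 620.5, 606.8 and 548.2 in transgenic tissue, and 606.7, 635.6, 557, 521.2 and 563.2 in non-transgenic tissue. The dysplasia arrays lay above all others, with log2 changes of 0.49 ± 0.09 (adjusted p = 0.00134) and 0.45 ± 0.08 (adjusted p = 0.00102). Mrps34 averaged 2221 ± 236 in dysplasia, against 1577 ± 195 in transgenic and 1420 ± 49.5 in non-transgenic tissue (SD, n = 5 each), with no overlap between dysplasia and the others. Mrps21, a relative of bacterial S21, had log2 changes of 0.57 ± 0.20 and 0.58 ± 0.17, both called (adjusted p = 0.048 and 0.0159), but its arrays overlapped. Of the 3 paralogs of bacterial S18, Mrps18b was higher in both comparisons (0.36 and 0.43), whereas Mrps18a (-0.06 and 0.06) and Mrps18c (0.22 and 0.23) had no call.

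The members called lower were both of the small subunit. Mrps6, a relative of bacterial S6, had signals of 1159, 804.1, 862.7, 799 and 1052 in dysplasia, 1516, 1169, 1132, 1200 and 1222 in transgenic tissue, and 1069, 1047, 940.1, 1054 and 1078 in non-transgenic tissue. Dysplasia overlapped with both groups, with log2 changes of -0.40 ± 0.13 against transgenic (adjusted p = 0.0296) and -0.16 ± 0.11 against non-transgenic tissue (adjusted p = 0.3). Mrps9, a relative of bacterial S9, averaged 660.6 ± 151 in dysplasia, against 804.4 ± 92.3 in transgenic and 921.3 ± 171 in non-transgenic tissue (SD, n = 5 each). Its log2 change was -0.28 ± 0.15 against transgenic tissue (adjusted p = 0.168, or 0.0243 and lower with the block) and -0.46 ± 0.16 against non-transgenic tissue (adjusted p = 0.0418).

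Members with numbers of bacterial ribosomal proteins (Mrpl up to 36 and Mrps up to 21) had 14 of 43 higher and 1 lower against transgenic tissue, and those with higher numbers 13 of 33 higher and 0 lower (32.6% and 39.4% higher, against 18.6% of all tested genes, of which 21% were lower). Their median log2 changes were 0.21 and 0.25, and the difference was not tested. Mrps36, which bears a ribosomal symbol but is now known as a subunit of the 2-oxoglutarate dehydrogenase complex, was higher in both comparisons (0.44 and 0.54). The probe sets with the highest signals belonged to Mrps14, Mrpl52 and Mrpl51. Mrpl51 averaged 5059 ± 515 in dysplasia, against 3878 ± 261 in transgenic and 3508 ± 195 in non-transgenic tissue (SD, n = 5 each), and was called in both dysplasia comparisons, as was Mrpl52. Among the dimmest, Mrpl1 was higher in both comparisons (0.32 and 0.28), Mrps27 had 0.22 with no call and 0.43 with a call, and Mrps5 had -0.21 and -0.18 with no call.

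For 29 members several probe sets were tested, and their calls were the same in 16 of them in dysplasia against transgenic tissue and in 10 against non-transgenic tissue. In all of these but Mrpl50 and Mrpl52 the shared result was no call. All tested probe sets of Mrpl50 and Mrpl52 were higher in both comparisons. Mrpl1, Mrpl19, Mrpl28, Mrpl38, Mrpl51, Mrpl57, Mrps6 and Mrps21, called against transgenic tissue, each had a further probe set without a call there. The calls were opposed in Mrpl48 in both comparisons and in Mrps14 in the second. For Mrpl48, 1428302_at had log2 changes of 0.45 and 0.63, both called, the dim 1442016_at had -0.52 and -0.82, both called, and the brightest, 1437997_x_at, had 0.06 and 0.00 with no call. For Mrps14, the bright 1420489_at had 0.31 against non-transgenic tissue (adjusted p = 0.00919) and the dimmer 1420488_at had -0.65 (adjusted p = 0.00487). Dimmer probe sets of Mrpl57 (1460225_at, 0.16 and 0.00) and Mrpl51 (1416878_at, 0.14 and 0.02) had no call. For Mrpl28, 1456313_x_at had -0.12 and -0.26 with no call, and 1437622_x_at had 0.36 and 0.38, both called. The probe sets of Mrps21 differed in sign.

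Other genes of mitochondrial protein synthesis were called in both directions. In most of the lists the share called higher lay near the 18.6% of all tested genes called higher than in transgenic tissue. The share called lower was 0% to 10%, below the 21% of all tested genes. Of 4 tested mitochondrial ribosome subunits without an Mrp symbol, Dap3 and Chchd1 were higher than in transgenic tissue (0.37 and 0.41), and all 4 were higher than in non-transgenic tissue. Of 10 tested translation factors Mtrf1l, a release factor (0.41), and Mtfmt, which formylates the initiator tRNA (0.38), were higher than in transgenic tissue and Guf1, a ribosome-binding GTPase, was lower (-0.52), which is 20% higher and 10% lower. Of 26 tested assembly and ribosomal RNA factors 4 were higher and 1 lower (15.4% and 3.85%), with Mpv17l2, an assembly factor, at 1.05 ± 0.23 (adjusted p = 0.00468) and Nsun4, a ribosomal RNA methyltransferase, at 0.44. Of 17 tested mitochondrial aminoacyl-tRNA synthetases Vars2 (0.78), Yars2 (0.66) and Rars2 (0.42) were higher (17.6%) and 0 lower. None of 12 tested genes of mitochondrial transcription and RNA was called by limma, with 2 higher at an unadjusted p under 0.05. Of 10 regulators of nuclear genes for mitochondria Myc (1.24) and Pprc1 (0.37) were higher (20%) and Max (-0.48) was lower (10%). Against non-transgenic tissue the shares higher and lower were 10% and 10% of translation factors, 23.1% and 11.5% of assembly factors, and 29.4% and 11.8% of synthetases. They were 0% and 0% of transcription and RNA genes and 40% and 20% of regulators (24.7% and 26% of all tested genes).

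Respiratory chain and ATP synthase subunits, which include the partners of the proteins that mitochondrial ribosomes make, had 22 of 78 higher (28.2%, against 18.6% of all tested genes) and 4 lower (5.13%, against 21%) than in transgenic tissue, with a median log2 change of 0.20. The 4 lower were Cox4i2, a form known from lung (-2.18), Ndufa4l2, known to rise in low oxygen (-1.49), Cox7a1, the muscle form (-0.56), and Cox6b2, the testis form (-0.45). The cytosolic ribosome list held only genes with a probe set annotated to 1 gene, 45 in all, and so may not cover every such protein. Of its 44 tested genes 5 were higher (11.4%, below the 18.6% of all tested genes) and 0 lower, with a median of 0.14. One of the 5, Rps19bp1, is a binding partner of a ribosomal protein and no subunit. Between transgenic and non-transgenic tissue no gene of these lists was called. There 80.8% of the respiratory chain list had a log2 change above 0, near the 80.3% of members, and 47.7% of the cytosolic list (48.8% of all tested genes). In dysplasia against non-transgenic tissue these shares were 88.5% and 79.5%, beside 84.2% of members (49.4% of all tested genes).

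**Figure D5:**
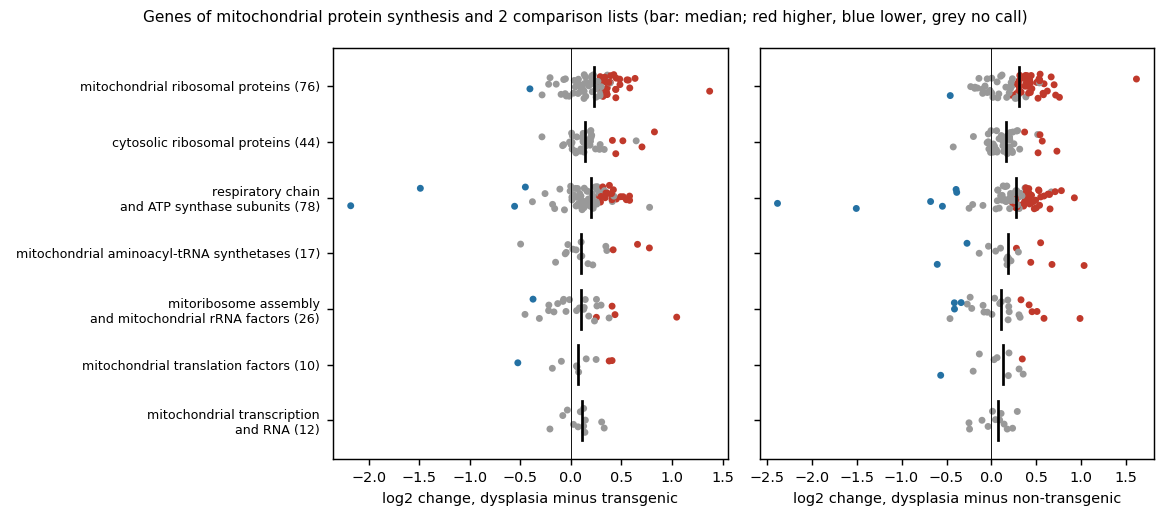
Log2 changes (x axes) of dysplasia against transgenic tissue (left) and against non-transgenic tissue (right) for members and 6 other lists, with the number of genes tested. Bars are medians, at 0.23 and 0.31 for the members and 0.14 and 0.16 for the cytosolic ribosomal proteins. Red points are genes called higher and blue points genes called lower.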

How the data were processed

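RNA (175 ng) from laser-microdissected 10 µm lung sections of 15 samples was measured on Affymetrix Mouse Genome 430 2.0 arrays. The deposited values are intensity signals that the authors computed with GCOS (version not given in the sources used here), scaled to a target of 500. Control probe sets were left out, as were probe sets with a mean signal of at most 100 over the 15 arrays, which left 21658 probe sets. Groups were compared on log2(signal + 50) with limma 3.58.1 in R 4.3.3, unpaired as in the study's methods, on the 10 arrays of each comparison, with Benjamini-Hochberg adjustment over all tested probe sets. The scripts were tested on simulated data. The number of arrays limits the precision, and p-values cover the spread between these arrays.

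The members and gene lists were chosen with earlier results of these data known, so no list was tested as a set. Members named with values were the 8 with the largest called rise and fall per comparison, the 3 brightest and 3 dimmest, the S18 paralogs and stalk genes, and members with opposed probe sets. From the other lists up to 4 genes with the smallest p were named, and all called genes of some lists. Mrps36, partners of divergent pairs and the genes whose promoter is shown were chosen after their values were seen.

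Deviations from group means were compared between arrays of the same number. Between dysplasia and transgenic tissue, where the study took both tissues from the same mouse, the lowest correlation was 0.219. The mean was 0.612 for the same number and -0.15 for different numbers. Here 10 of 10 arrays correlated best with their own number, and the number was used as a block. Xist lay on the same side in 4 of 5 numbers, and on opposite sides in number 4. It was 9674 on dysplasia 4 and 85 on transgenic 4, so as labelled these arrays were of unlike sex. Between transgenic and non-transgenic tissue the lowest correlation was 0.135, with means of 0.452 for the same number and -0.108 for different numbers. Between dysplasia and non-transgenic tissue the lowest was -0.00366, with means of 0.405 and -0.0995. These groups share no mouse, so a correlation between same numbers cannot show that a number marks the mouse. Alternatives covered offset, scaling, signal limit, samples in the fit, block, variance trend, SAM, probe set, RNA integrity, sex and left-out arrays.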

Additional observations from a re-analysis of the deposited data

Results flagged for a closer look

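In 75 groups of 5 arrays tested for a stray array among the named members, 4 had 1 array far from the others (gap over range above Dixon's critical value), where chance gives about 1 in 20. Mrpl11 (1437131_x_at) was 590.1 on transgenic 1, against 1659 to 1829 on the other transgenic arrays. Its probe set 1417918_at had 819.4 on transgenic 1, against 856.9 to 1356 on the other transgenic arrays. Mrps6 was 1516 on transgenic 1, against 1132 to 1222 on the others, and without transgenic array 1 no member was called lower in dysplasia than in transgenic tissue. Mrps6 was 940.1 on non-transgenic 3, against 1047 to 1078 on the others. Mrps27 was 277.6 on non-transgenic 5, against 195.4 to 210.8 on the others.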

How the results depend on the processing

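The median log2 change of the members kept its direction in every alternative, at 0.21 to 0.28 for dysplasia against transgenic tissue, 0.28 to 0.36 against non-transgenic tissue and 0.05 to 0.09 for transgenic against non-transgenic tissue. Of members higher in dysplasia than in transgenic tissue (27), SAM called 14, as did the fit without array 5 of each group. Leaving out 1 array gave 16 to 31, with 16 without dysplasia replicate 3 and 17 without transgenic replicate 4. With the replicate block 40 were higher and 2 lower (46 and 1 against non-transgenic tissue, 0 and 0 for transgenic against non-transgenic tissue). The count lower than in transgenic tissue (1) was 0 with SAM and without array 5 of each group, 2 with the most variable probe set, and 0 to 1 with 1 array left out (0 without dysplasia 2, 3 or 4 or transgenic 1, 4 or 5). The count higher than in non-transgenic tissue (41) was 29 to 47. The count lower (1) was 0 with Xist as a covariate, without a signal limit and after quantile normalization, 2 with the most variable probe set, and 0 to 2 with 1 array left out (0 without dysplasia 1 or 2 or non-transgenic 3, 4 or 5, 2 without non-transgenic 2). The cause was not tested. Shares of all tested genes are given here only for the main fit and for the block against transgenic tissue (25.9% higher and 28% lower). For the other alternatives the counts cannot tell a change in the members from a change over all genes. Mrps14 reversed to -0.65 against non-transgenic tissue with the most variable probe set, which is another probe set. Of 17 named members called against transgenic tissue 8 kept their call in every alternative, and of 18 called against non-transgenic tissue 13 did. Signals near the limit of 100 bound what dim probe sets can show.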
